A study of Homo sapiens with 4 samples.

Results

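Aminoacyl-tRNA synthetases are the enzymes that join each amino acid to its own transfer RNA. The genes described here are 36 nuclear genes for these enzymes, taken by symbol under the names used with the hg19 genome build. Of them, 20 encode enzymes of the cytosol and 16, those whose symbol ends in 2, encode enzymes of the mitochondrion. They are part of 20052 protein-coding genes, and their sites are part of 15131 sites in the authors' deposited table. Of the 36 genes, 26 were paired with at least 1 site. These pairings fill 37 rows of the table with 36 distinct sites, since HARS and HARS2 share 1.

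The study mapped BRCA2, a protein of homologous recombination, on chromatin of hTert-HME1, a human mammary epithelial cell line made immortal with telomerase. BRCA2 ChIP libraries (2, made with a BRCA2 antibody) were set against input chromatin libraries (2, made from chromatin with no antibody step), all from formaldehyde-crosslinked cells of this 1 line in log-phase growth. The authors' deposited table holds sites that differ between ChIP and input up to a false discovery rate (FDR) of 0.05, mostly 500 bp wide, with the mean log2 concentration of reads in each group. It gives no value per library, so the spread between libraries and the depth are unknown here. All concentrations, log2 folds (ChIP minus input) and FDR values below are the authors', from that table. A control antibody is not part of the comparison, so BRCA2 binding and pull-down that does not depend on BRCA2 cannot be told apart.

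The synthetases fall into structural classes I and II, which bind the transfer RNA and the ATP in different ways. In animal cells several cytosolic enzymes are held in a multisynthetase complex by scaffold proteins. Each mitochondrion uses its own transfer RNAs, which are charged by enzymes encoded in the nucleus and imported. For most amino acids the cytosolic and mitochondrial enzymes come from separate genes, while GARS and KARS each serve both compartments. Synthetase genes are active in every growing cell, and many belong to the targets of ATF4, the transcription factor of the amino acid response.

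Sites at synthetase genes were frequent, and most were weak. A site was paired with 26 of the 36 genes (72.2%), against 44.2% of all protein-coding genes. Near the listed gene start, within 1 kb of it, 23 of the 36 genes (63.9%) carried a site, against 23.4% of all protein-coding genes. Over the start itself it was 14 of 36 (38.9%), against 15.3%. At an FDR under 0.01, 17 of 36 genes (47.2%) kept a site anywhere, against 37.0%, and 14 of 36 (38.9%) kept a start site, against 19.4%. Asking for a log2 fold of 1 or more left 13 of 36 genes (36.1%), against 34.7%, and 11 of 36 (30.6%) near the start, against 17.8%. At an FDR under 0.001 the count was 8 of 36 (22.2%), against 26.0%. Asking for a log2 fold of 2 or more left 2 genes, AARS and FARS2 (5.56%, against 7.82%). For sites anywhere, the share of synthetase genes was thus above that of all genes with no further limit and at an FDR under 0.01, close to it for a log2 fold of 1 or more, and below it at the strictest FDR and fold limits. For sites near the start it was above that of all genes under each limit counted there, but the strictest FDR and fold limits were not. Among genes with a start site, no cytosolic gene reached a log2 fold of 2. Of the mitochondrial genes with a start site 12.5% did, through FARS2 alone, against 15.1% of such protein-coding genes. These shares are descriptions of a list chosen with earlier results known, and no test of the list was made.

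**Figure D1:**
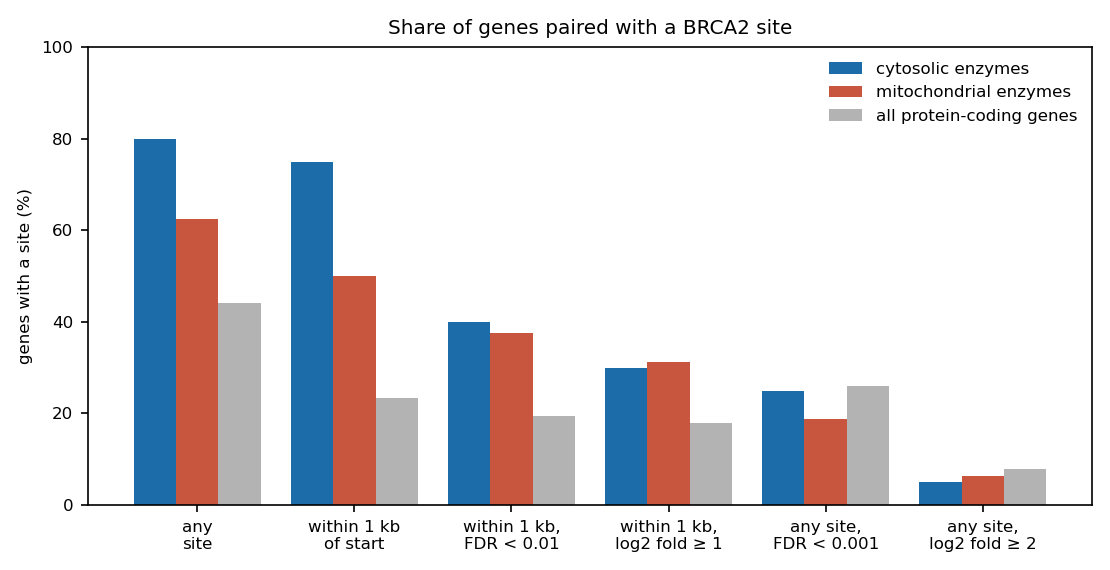
Share of genes with a BRCA2 site (percent, vertical axis) for the 20 cytosolic enzymes, the 16 mitochondrial enzymes and all 20052 protein-coding genes, under 6 definitions of a site. Near the start the bars stand at 75.0% and 50.0% for the enzymes against 23.4% for all genes. For a log2 fold of 2 or more they stand at 5.0% and 6.25% against 7.82%.

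Where a start did hold a site, its fold was low for the synthetases. The median log2 fold of the strongest site within 1 kb of the start was 0.96 over 23 synthetase genes (quartiles 0.82 and 1.36) and 1.27 over 4694 protein-coding genes (quartiles 1.01 and 1.64). The ChIP concentration at distinct synthetase sites near starts had a median of 6.67, close to the 6.65 of all sites near starts. The input concentration had a median of 5.50 at the synthetase sites and 5.39 at all sites near starts. Over these distinct sites the median log2 fold was 1.06 for the synthetases and 1.26 for all sites near starts. The part of the input level in the fold was not tested.

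**Figure D2:**
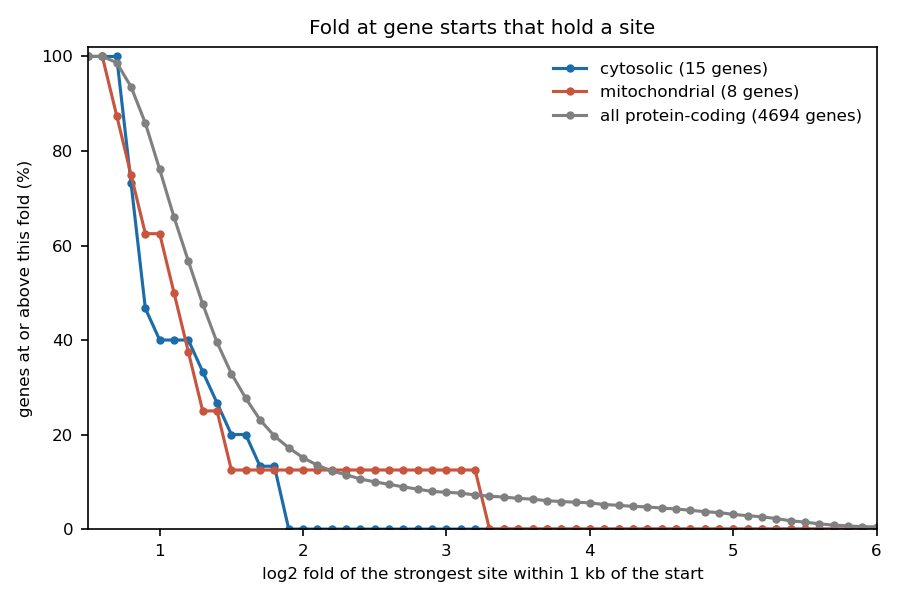
Share of genes (percent, vertical axis) whose strongest site within 1 kb of the start reaches a given log2 fold (horizontal axis, in steps of 0.1), for 15 cytosolic, 8 mitochondrial and 4694 protein-coding genes with such a site. At a log2 fold of 1.0 the curves stand at 40.0%, 62.5% and 76.1%. The mitochondrial curve stays above 0 past a log2 fold of 1.9 through FARS2 alone.

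The largest folds of the family were at sites that also lay within 1 kb of another gene's start. The largest log2 fold was 3.44, paired with AARS, the cytosolic alanyl-tRNA synthetase (ENSG00000090861). This site, chr16:70285760-70286259 on hg19, had a mean log2 concentration of 8.60 in ChIP and 5.16 in input, with FDR 2.19e-23 in the authors' deposited table. It overlaps the end of AARS, 37686 bp from the AARS start by the listed distance, and at the same time overlaps the start of EXOSC6, a subunit of the RNA exosome, with its centre 177 bp from that start. At its own start AARS had a weaker site, chr16:70323086-70323585, with 6.47 in ChIP and 5.03 in input, giving a log2 fold of 1.44 (FDR 0.000181). That site also overlaps the start of DDX19B, an RNA helicase of mRNA export, which is read in the other direction from a start 120 bp away.

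FARS2, the mitochondrial phenylalanyl-tRNA synthetase (ENSG00000145982), had the next largest fold and the largest at a synthetase start. The site chr6:5260361-5260860 had 8.02 in ChIP and 4.81 in input, a log2 fold of 3.22 (9.32-fold) and an FDR of 5.39e-19 in the authors' deposited table. Its centre lies 666 bp upstream of the FARS2 start, inside LYRM4, a gene of iron-sulfur cluster assembly on the opposite strand whose start is 105 bp from that of FARS2. A second site over both starts, chr6:5261120-5261619, had 7.18 in ChIP and 5.44 in input, log2 fold 1.74 and FDR 1.83e-07. So the larger of the neighbouring sites lay on the LYRM4 side. Another site, deep inside FARS2 and 468013 bp from its start, had 6.46 in ChIP and 5.75 in input, a log2 fold of 0.71. The FARS2 promoter is shown because both sites lie within 1 kb of this start, though the run need not reach the stronger one. The GRCh38 runs printed here were not placed relative to the hg19 sites. This run is from RefSeq on GRCh38.p14, chr6:5260757-5261056, plus strand, and holds 6 matches to the GC box GGGCGG, printed in capitals, 4 of them on the reverse strand, of which 2 overlap by a base. Its GC content is 73.0%, the highest of the 30 synthetase promoters in the reference table.
FARS2: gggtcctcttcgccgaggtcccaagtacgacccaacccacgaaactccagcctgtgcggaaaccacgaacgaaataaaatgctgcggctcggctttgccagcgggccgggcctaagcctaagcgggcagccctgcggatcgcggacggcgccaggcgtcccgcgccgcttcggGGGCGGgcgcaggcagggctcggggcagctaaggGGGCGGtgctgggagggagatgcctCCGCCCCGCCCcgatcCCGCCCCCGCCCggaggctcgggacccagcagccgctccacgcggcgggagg

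After AARS and FARS2 came a group with log2 folds between 1.69 and 1.82. YARS, the cytosolic tyrosyl-tRNA synthetase, had 6.92 in ChIP and 5.11 in input at chr1:33283068-33283567, a log2 fold of 1.82 with FDR 4.88e-07 in the authors' deposited table. The site centre lies 436 bp inside YARS and also inside S100PBP, which is read in the other direction. SARS, the cytosolic seryl-tRNA synthetase, had 7.29 in ChIP and 5.49 in input at chr1:109756789-109757288, a log2 fold of 1.80 (FDR 1.15e-08). This was the highest ChIP level at any cytosolic synthetase start, and no other gene was paired with the site. CARS, the cytosolic cysteinyl-tRNA synthetase, had 6.50 in ChIP and 4.82 in input at a site upstream of its start, chr11:3079794-3080293, a log2 fold of 1.69 (FDR 2.58e-05). CARS had the most sites of the family, 4. The others had log2 folds of 1.32 over its end, 0.92 inside the gene 7831 bp from the start and 0.88 inside the gene 35009 bp from it. TARS2, the mitochondrial threonyl-tRNA synthetase, had 1.79 at a site 10059 bp upstream, which lies 786 bp past the end of RPRD2, and 1.43 over its own start, with 6.81 in ChIP and 5.38 in input. The remaining TARS2 site, with 0.69, lay past its end and over the start of ECM1, an extracellular matrix gene.

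**Figure D3:**
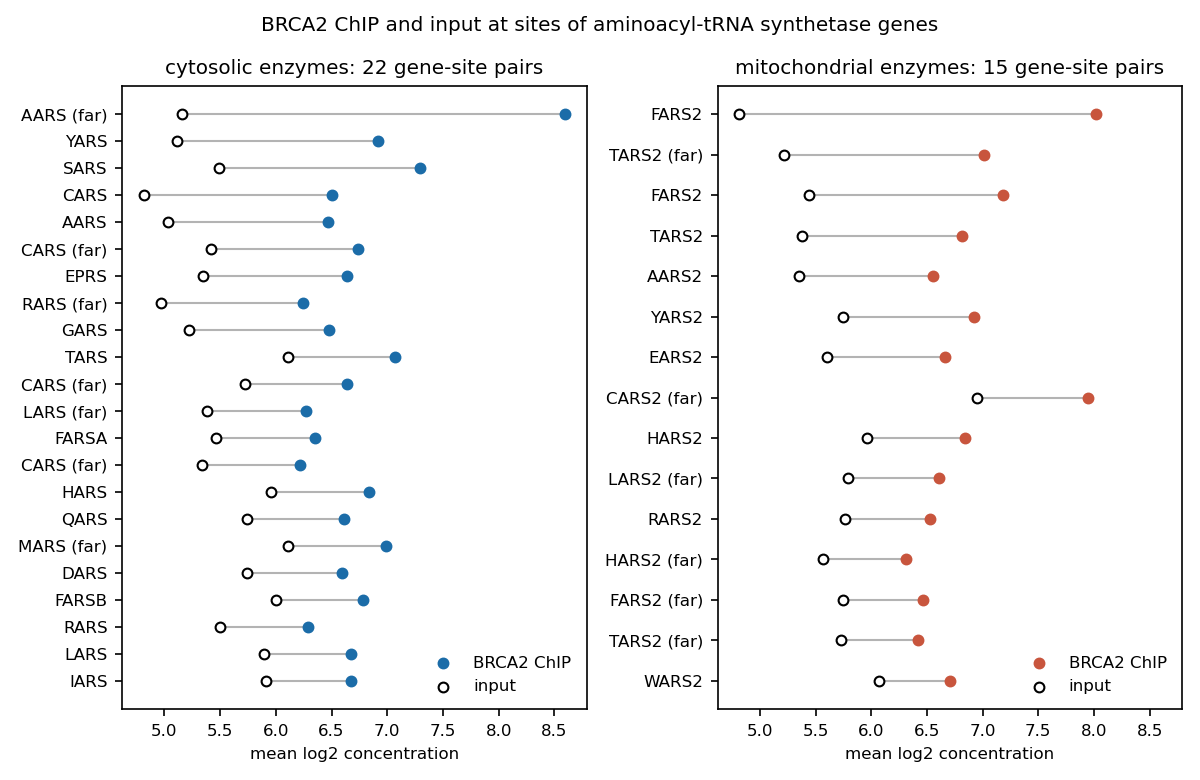
Mean log2 concentration (horizontal axis) in BRCA2 ChIP (filled) and input (open) for each of the 37 gene-site pairs, cytosolic enzymes left and mitochondrial enzymes right, ordered by log2 fold. The word far marks sites over 1 kb from the listed start of that gene by the listed distance, which runs to the left edge of the site. The CARS2 site is so marked, though its nearer edge is 41 bp from the CARS2 start. AARS and FARS2 stand out by ChIP levels of 8.60 and 8.02, while CARS2 has a high ChIP level, 7.95, together with the highest input, 6.95.

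HARS and HARS2, the cytosolic and mitochondrial histidyl-tRNA synthetases, are neighbours read in opposite directions and share a single site near both starts. The site chr5:140070678-140071177 had 6.84 in ChIP and 5.96 in input, a log2 fold of 0.88 (FDR 0.00593) in the authors' deposited table. It overlaps the HARS2 start, with the centre 83 bp upstream of it, and lies inside HARS with the centre 681 bp from the HARS start. The authors' listed starts make the genes overlap by 598 bp, whereas the RefSeq starts lie 85 bp apart with no overlap. The promoter is shown because the starts of a cytosolic and a mitochondrial gene both lie in it. In the HARS2 run, RefSeq on GRCh38.p14, chr5:140691205-140691504, plus strand, the HARS2 start is base 251 and the HARS start, on the other strand, is base 166. Both matches to the ETS motif CCGGAAG, in capitals and in either direction, lie between these starts.
HARS2: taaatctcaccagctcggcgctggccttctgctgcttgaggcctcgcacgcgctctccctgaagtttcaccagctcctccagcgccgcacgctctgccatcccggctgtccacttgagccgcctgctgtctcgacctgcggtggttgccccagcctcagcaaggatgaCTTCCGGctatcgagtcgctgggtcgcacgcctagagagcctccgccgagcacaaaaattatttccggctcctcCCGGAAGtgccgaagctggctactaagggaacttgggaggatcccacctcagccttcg
HARS2 also had a site with a log2 fold of 0.73 past its end, inside ZMAT2.

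Among the 8 enzymes of the multisynthetase complex, 7 had a site (87.5%, against 44.2% of all protein-coding genes) and 6 had 1 near the start (75.0%, against 23.4%), but their folds were low. EPRS, which charges glutamate and proline, had 6.64 in ChIP and 5.35 in input over its start, a log2 fold of 1.30 (FDR 0.000246) in the authors' deposited table. QARS, for glutamine, had a log2 fold of 0.87, DARS, for aspartate, 0.85, LARS, for leucine, 0.78, RARS, for arginine, 0.78, and IARS, for isoleucine, 0.75, each within 1 kb of the start. These 5 had FDR values from 0.0131 to 0.0285, so 1 of the 8 genes, EPRS, kept a start site at an FDR under 0.01 (12.5%, against 19.4% of all protein-coding genes). MARS, for methionine, was paired with a site of 0.87 inside the gene 12535 bp from its start, which lies within 1 kb of the start of ARHGAP9. KARS, for lysine, had no site. The stronger sites of LARS and RARS, 0.89 and 1.27, lay 8039 bp and 95960 bp upstream, that of RARS inside WWC1. Of the scaffold proteins of the complex, AIMP2 showed 1.27 (log2 fold) over its start and EEF1E1 1.00 at a site 5548 bp upstream, while AIMP1 had no site. The site of AIMP2 lies within 1 kb of the start of PMS2 as well. With the scaffold proteins, 9 of 11 genes of the complex had a site (81.8%), with a median log2 fold of 0.89 for the strongest.

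The other cytosolic enzymes with a site had log2 folds from 0.79 to 1.26. GARS, for glycine, had 6.48 in ChIP and 5.22 in input over its start, a log2 fold of 1.26 (FDR 0.00143) in the authors' deposited table. TARS, for threonine, had 7.07 in ChIP and 6.11 in input, a log2 fold of 0.96 (FDR 0.00184). Its high ChIP level thus stood on a high input level. FARSA and FARSB, the subunits of the cytosolic phenylalanyl enzyme, had 0.89 and 0.79, with FDR values of 0.0187 and 0.0168. For phenylalanine the mitochondrial gene FARS2 was the stronger, at 3.22.

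Of the other mitochondrial enzymes, AARS2, for alanine, had 6.55 in ChIP and 5.35 in input over its start, a log2 fold of 1.21 (FDR 0.000748) in the authors' deposited table. YARS2, for tyrosine, had 6.92 in ChIP and 5.75 in input and a log2 fold of 1.16. EARS2, for glutamate, had 6.66 in ChIP and 5.60 in input and a log2 fold of 1.06, at a site also inside UBFD1 on the opposite strand. CARS2, for cysteine, had 7.95 in ChIP and 6.95 in input at chr13:111364921-111365909, a site 989 bp wide. The log2 fold of this site was 1.01, and it overlaps the start of ING1, a chromatin-binding growth regulator. The edge of the site is 41 bp from the CARS2 start, but the listed distance of 1029 bp left it outside the 1 kb window. RARS2, for arginine, had 0.77 at a site that also overlaps the start of ORC3, a subunit of the origin recognition complex. WARS2, for tryptophan, had 6.71 in ChIP and 6.07 in input, and its 0.64, with an FDR of 0.0434, was the smallest fold of the family. LARS2, for leucine, had 0.83 at a site 120521 bp inside the gene, near the start of the antisense gene LARS2-AS1.

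As long as no minimum fold was required, the enzymes of the cytosol had sites in a larger share of genes than those of the mitochondrion. Under the fold limits the mitochondrial share was slightly larger. Which compartment had the higher median fold depended on the FDR limit. A site was paired with 16 of 20 cytosolic genes (80.0%) and 10 of 16 mitochondrial genes (62.5%), with 44.2% of all protein-coding genes beside them. Near the start the counts were 15 of 20 (75.0%) and 8 of 16 (50.0%), against 23.4% of all protein-coding genes. At an FDR under 0.01 near the start they were 8 of 20 (40.0%) and 6 of 16 (37.5%), against 19.4%. Asking for a log2 fold of 1 or more near the start gave 6 of 20 (30.0%) and 5 of 16 (31.2%), against 17.8%. For sites anywhere the same fold limit gave 7 of 20 (35.0%) and 6 of 16 (37.5%), against 34.7%. Raising it to 2 left 1 of 20 (5.0%) and 1 of 16 (6.25%), against 7.82%. The median log2 fold of the strongest site near the start was 0.89 in 15 cytosolic genes and 1.11 in 8 mitochondrial genes, and the ranges, 0.75 to 1.82 and 0.64 to 3.22, overlap. For the strongest site anywhere the medians were 0.925 and 1.035, and among those with an FDR under 0.01 they were 1.285 and 1.16, with the cytosolic genes higher. The difference between compartments was not tested, and HARS and HARS2 count the same site in each.

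By amino acid, 15 pairs of a cytosolic and a mitochondrial gene were set side by side. EPRS, which charges glutamate and proline, was left out of the pairs. Its log2 fold was 1.30, beside 1.06 at EARS2 and no site at PARS2. Both genes had a site in 9 pairs, the cytosolic gene alone in 3, the mitochondrial gene alone in 1, and neither in 2. Where both had a site, the strongest fold was higher for the cytosolic gene in 5 pairs and for the mitochondrial gene in 3, with the histidine pair sharing its value. The pairs with FARSA and FARSB share FARS2 and make up 2 of these 3. Tyrosine, with 1.82 at YARS and 1.16 at YARS2, and serine, with 1.80 at SARS and no site at SARS2, were led by the cytosolic gene. Threonine was led by the mitochondrial gene, with 0.96 at TARS and 1.79 at TARS2. These folds are of the strongest site anywhere. At the starts alone both genes had a site in 7 pairs, and neither compartment led. The cytosolic gene was higher for alanine (1.44 and 1.21), arginine (0.78 and 0.77) and tyrosine (1.82 and 1.16). The mitochondrial gene was higher for threonine (0.96 and 1.43) and in both phenylalanine pairs (0.89 and 0.79, each beside 3.22). The histidine pair again shared its value.

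No row was paired with 10 genes of the list. These were KARS, NARS, VARS and WARS of the cytosol, for lysine, asparagine, valine and tryptophan, and IARS2, MARS2, NARS2, PARS2, SARS2 and VARS2 of the mitochondrion. Asparagine and valine had no site in either compartment. The neighbouring protein-coding genes of these 10, 20 in RefSeq order, were checked, because a site nearer to a neighbour's start can be listed under that neighbour. Near their own starts, 3 of the 20 carried a site (15%, against 23.4% of all protein-coding genes), and 6 of the 20 had a site anywhere (30%, against 44.2%). RAB3GAP2, with a log2 fold of 1.43, and BPNT1, with 0.69, lie beside IARS2, and TTC4, with 1.41, lies beside PARS2. The other 3, ATP8B1 beside NARS, TENM4 beside NARS2 and WDR25 beside WARS, had log2 folds of 1.43, 1.71 and 1.62 at sites farther than 1 kb from their own starts. The distance of these sites from the synthetase genes was not determined, since the table lists no start for genes without a row.

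Sites near synthetase starts often lay near a start on the opposite strand as well. Of the 23 distinct synthetase sites near a start, 11 (47.8%) were also within 1 kb of a start on the opposite strand. Over all 5025 sites near any listed start, noncoding genes included, it was 26.0%. They belong to AARS, DARS, EARS2, FARS2 (both of its start sites), GARS, HARS with HARS2, RARS2, TARS, WARS2 and YARS. The sites of DARS, EARS2 and YARS overlapped neither start, and the listed starts there lay 924, 660 and 1386 bp apart. The stronger FARS2 site overlapped neither start as well. The partner was a protein-coding gene for 7 of these 11 genes and a noncoding or unmatched gene for 4, namely AC093391.2 at DARS, AC005154.6 at GARS, CTD-2203K17.1 at TARS and RP11-418J17.1 at WARS2. The IARS site lies within 1 kb of SNORA84, on the same strand. A site near the starts of both genes cannot be assigned to either gene from these data. Of the 13 pairings with a listed distance over 1 kb from the synthetase start, 5 lay within 1 kb of the start of another gene. These genes were EXOSC6, ARHGAP9, ECM1, ING1 and LARS2-AS1. The site with ING1 is that of CARS2, whose nearer edge is 41 bp from the CARS2 start, on the opposite strand to ING1.

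**Figure D4:**
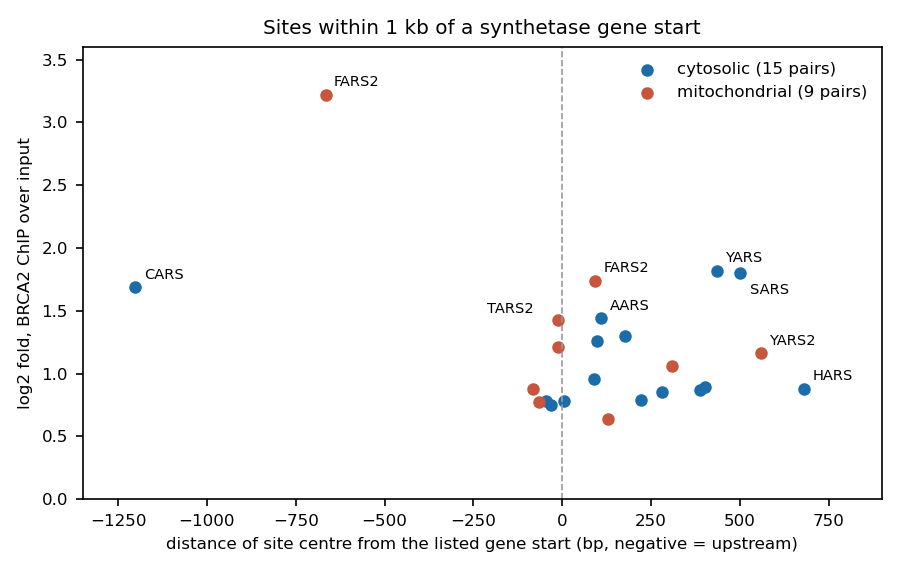
Log2 fold of BRCA2 ChIP over input (vertical axis) against the distance of the site centre from the listed gene start (horizontal axis, bp, negative upstream) for the 24 gene-site pairs within 1 kb of a synthetase start. The 15 cytosolic pairs lie mostly to the right of the start, with YARS at 1.82 and SARS at 1.80 as their highest, and the 9 mitochondrial pairs to either side, with FARS2 highest at 3.22.

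Of the 24 pairs near a start, 16 (66.7%) had the site centre downstream of the listed start, against 50.9% of 4907 such pairs over all protein-coding genes. For the cytosolic enzymes it was 12 of 15, and for the mitochondrial enzymes 4 of 9. The median distance of the centre was 177 bp downstream in the cytosolic group and 11 bp upstream in the mitochondrial group. The table gives 1 start per gene, and distances to alternative starts were not determined.

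The promoters of the synthetase genes were compared by letters with all promoters of the RefSeq table, each 300 bases long, of which 30 belong to the list and 27305 make up the table. Matches were sought on both strands, and they describe letters and not binding. The ETS motif CCGGAAG was found in 14 of 30 synthetase promoters (46.7%), against 10.7% of all and 14.2% of the 15842 protein-coding promoters. HARS and HARS2 are counted separately here, though their runs share 184 bases that hold the same ETS matches. The GC box GGGCGG was found in 21 (70.0%), against 44.6% of all and 58.5% of the protein-coding promoters. CCAAT was found in 16 (53.3%), against 35.7% and 36.4%. A YY1 motif was found in 3, those of KARS, NARS and YARS2 (10.0%, against 0.916% of all and 1.37% of the protein-coding promoters). The E-box CACGTG was in 4 (13.3%, against 7.43% of all and 8.88% of the protein-coding promoters). An NRF1 motif was in 1, that of MARS2 (3.33%, against 1.36% and 1.75%). TATAAA was in 1, that of GARS (3.33%, against 12.0% and 9.63%). The ETS motif was in 8 of 19 promoters with a site near the start and in 6 of 11 without, and the GC box in 12 of 19 and 9 of 11. The 11 include CARS2, whose site has its nearer edge 41 bp from the listed start but a listed distance over 1 kb. The GRCh38 run of CARS2, counted above for CCAAT and the E-box, was not placed relative to that listed start. Median GC content was 61.7% in the 19 promoters and 63.0% in the 11, with 62.7% over protein-coding promoters of the table.

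The C/EBP-ATF element, the kind of sequence bound by ATF4, was searched as TGATGNAAT. It was found in 1 of the 30 promoters, that of TARS (3.33%, against 1.02% of all and 0.625% of the protein-coding promoters). This count rests on the last base. Without it, TGATGNAA was found in 7 of 30 (23.3%), those of AARS, CARS, IARS, MARS, NARS, TARS and YARS2, against 3.67% of all and 2.53% of the protein-coding promoters. Of the 7, 5 are among the 19 promoters with a site near the start and 2 among the 11 without. The shorter form was searched after the data were seen. The promoters of TARS, with a site over its start at a log2 fold of 0.96, and of KARS, with no site, are printed to show what each carries. Capitals mark matches to any of the 8 motifs. In TARS, chr5:33440715-33441014 on the plus strand, these are CCAAT on the reverse strand at bases 27 and 201, a GC box at 229 and the C/EBP-ATF element on the reverse strand at 252. In KARS, chr16:75647616-75647915 on the minus strand, they are a GC box on the reverse strand at 182, an ETS motif at 196 and the YY1 motif at 274. Both runs are from RefSeq on GRCh38.p14.
TARS: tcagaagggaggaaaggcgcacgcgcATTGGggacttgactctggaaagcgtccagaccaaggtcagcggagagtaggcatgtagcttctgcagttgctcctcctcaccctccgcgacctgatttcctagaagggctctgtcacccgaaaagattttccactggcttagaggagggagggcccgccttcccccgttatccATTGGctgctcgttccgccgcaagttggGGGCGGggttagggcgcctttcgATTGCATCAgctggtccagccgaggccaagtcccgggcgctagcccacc
KARS: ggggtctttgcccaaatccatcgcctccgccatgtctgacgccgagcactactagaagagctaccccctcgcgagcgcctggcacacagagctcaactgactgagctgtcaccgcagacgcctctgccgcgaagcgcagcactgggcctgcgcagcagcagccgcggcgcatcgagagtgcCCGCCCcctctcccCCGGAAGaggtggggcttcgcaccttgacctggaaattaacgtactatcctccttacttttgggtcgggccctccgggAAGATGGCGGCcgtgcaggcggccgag

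Related genes of transfer RNA use were listed alongside. Of 4 genes of the mitochondrial amidotransferase and initiator formylation, 3 had a site (75.0%, against 44.2% of all protein-coding genes). Their median log2 fold was 1.24. PET112 had 1.59 inside the gene and GATC 1.24 over its start, at a site also within 1 kb of the start of TRIAP1. Of 7 elongation factor genes, 5 had a site (71.4%, against 44.2% of all protein-coding genes), with a median of 1.34. Here EEF1D stood far above any synthetase, with 10.71 in ChIP and 4.57 in input, a log2 fold of 6.14 (FDR 7.2e-90) in the authors' deposited table. Its site lies inside the gene, 2231 bp from the listed start, and also within 1 kb of the start of TIGD5, 594 bp by the listed distance. EEF1A1, which carries charged transfer RNA to the ribosome, showed a log2 fold of 3.72 at a site 932 bp beyond its end. Of 20 genes of transfer RNA maturation and export, 11 had a site (55.0%, against 44.2% of all protein-coding genes), with a median of 1.19. TSEN34, a subunit of the splicing endonuclease, had 2.05 at a site also within 1 kb of the start of MBOAT7. SSB, the La protein, had 1.73 inside the gene, 6679 bp from its start. Of 4 editing and synthetase-like genes, 3 had a site (75.0%, against 44.2% of all protein-coding genes). They were led by DTD2 at 1.62 and PTRH2 at 0.99, with a median of 0.99. The DTD2 site also lies within 1 kb of the start of RP11-176H8.1, and the PTRH2 site within 1 kb of that of VMP1.

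Of 14 genes of the amino acid response, 11 had a site (78.6%, against 44.2% of all protein-coding genes), with a median log2 fold of 1.29. CEBPB had 8.09 in ChIP and 5.21 in input, a log2 fold of 2.87, 1495 bp beyond its end. ATF4 had 7.78 in ChIP and 4.97 in input, a log2 fold of 2.81, over its end. EIF2AK4, the kinase that senses uncharged transfer RNA, had 1.71 upstream of its start. DDIT3, PHGDH and SLC7A11 had no site. Taking the strongest site of each gene, the median log2 fold was 0.985 over the 26 synthetase genes and 1.31 over all 8853 protein-coding genes with a site.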

How the data were processed

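BRCA2 ChIP and input libraries (2 each) of hTert-HME1 cells were compared by the authors. Per the submitters' processing notes, DiffBind, MACS2, Picard 1.92, SAMtools, Bowtie 1.1.1 and cutadapt 1.8.1 were used with build hg19, order and settings unstated, and DiffBind made the comparison per the series' design text. The deposited table gives log2 concentrations per group, a log2 fold and an FDR (q-value) per site, per the file headers; neither its scaling nor the annotation release is stated in these sources. The labels do not say whether replicates came from separate cultures, so the FDR may reflect technical spread only. A deposited list of gene symbols without measurements was not used.

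Rows were taken by symbol; 0 rows carried a listed gene's Entrez ID under another symbol. Gene starts were derived from the listed distances, which gave 1 start for each of 4654 genes with several rows. That distance runs to the left edge of the site. A start site overlaps the start or has a listed distance of at most 1000 bp. Site starts are counted from 1. Rows were matched to 20052 protein-coding genes (RefSeq, GRCh38.p14) by Entrez ID, then symbol, and 8853 had a site. Locus Reference Genomic entries, which repeat genes, were not counted as partners. The derivation was tested on simulated data. Python 3.11.15 and pandas 2.3.3 were used. The genes, lists and motifs were chosen with earlier results of these data known, so no list was tested. All listed genes are named, with partners whose start lies near the same site and, of each related list, the 2 genes of largest fold. DDIT3, PHGDH, SLC7A11, EIF2AK4 and other related genes were named after their values were seen. The neighbour check and the strand of partners were also chosen after seeing the data. Alternatives varied FDR, fold, window and the site standing for a gene.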

Additional observations from a re-analysis of the deposited data

How the results depend on the processing

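No paired analysis was possible because the table has means per group and none per library; leaving out a replicate could not be run for the same reason. Windows of 3 kb and 5 kb and the nearest edge of the site left every count of genes with a start site within 1.5 times the value reported, as did leaving out GARS and KARS and, chosen after seeing the data, counting only sites whose centre is nearest to the start of the listed gene. The number of listed genes with a site was 17 at an FDR under 0.01, 8 at an FDR under 0.001, 13 with a log2 fold of 1 or more and 2 with a log2 fold of 2 or more. For cytosolic genes these were 10, 5, 7 and 1. For mitochondrial genes they were 3 at an FDR under 0.001, 6 with a log2 fold of 1 or more and 1 with a log2 fold of 2 or more. Genes with a start site numbered 14 when the site had to overlap the start, 14 at an FDR under 0.01 and 11 with a log2 fold of 1 or more, among them 8, 8 and 6 cytosolic genes. Of the mitochondrial genes, 5 had a start site with a log2 fold of 1 or more. For start sites the same 3 limits kept 15.3%, 19.4% and 17.8% of all protein-coding genes. A stricter limit can only lower a count. The median log2 fold of the strongest site was 0.925 in cytosolic and 1.035 in mitochondrial genes. At an FDR under 0.01 the order of these medians turned, to 1.285 and 1.16, and the cause was not tested. Over all paired sites they were 0.905 and 1.01. With the site nearest to the start the cytosolic median was 0.885, and without GARS and KARS 0.89. In alternatives chosen after seeing the data, they were 0.89 and 1.11 for sites within 1 kb of the start and 0.96 and 1.06 without HARS and HARS2. Group means without depth set the limit here: no error could be given for any single site.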
